A study of Rattus norvegicus with 8 samples.

Results

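The PAQR genes (progestin and adipoQ receptor family) code for receptor-like proteins that cross the membrane many times. Here the family was followed in the liver of rats fed PFOS, potassium perfluorooctanesulfonate, a fluorinated surfactant that persists in the body. Members were chosen by name: 9 genes (Mmd2, Mmd, Adipor1, Adipor2, Paqr3, Paqr4, Paqr7, Paqr8 and Paqr9) were looked up through the RefSeq transcript accession that each array probe carries. Of these, 7 had a probe, among 15154 genes with a symbol on the array, and 6 were bright enough to be tested, among 9619. Paqr7 and Paqr9 are not analysed here, and Paqr8 was too dim to test. Mmd2 heads the family because its fall was already known from these same arrays, so its difference is described without a test.

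One group of 4 adult male Sprague-Dawley rats ate a diet with 50 mg/kg PFOS for 28 days, and the other group of 4 ate the control diet for the same time. Each rat gave 1 liver RNA sample and 1 two-colour Agilent array. Liver RNA carried the dye Cy5, and a commercial universal rat reference RNA carried the dye Cy3 on every array. Each value is therefore a log2 ratio of liver over reference RNA, and 0 means equal brightness of the dyes after normalization. No dyes were swapped, and liver RNA had the same dye on all 8 arrays. A ratio compares a probe with itself across rats, and not 1 gene's level with another's.

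PAQR proteins are thought to share a fold of membrane helices that places a metal ion near the inner face of the membrane. The family has several branches. Adipor1 and Adipor2 are receptors of adiponectin, a hormone from fat tissue; in liver, Adipor1 is linked to the kinase AMPK and Adipor2 to the fatty acid sensor PPARalpha, and both have been described as ceramidases. Mmd (also called PAQR11) and Mmd2 (PAQR10) lie in the Golgi membrane, and in cultured mammalian cells they raise Ras signalling there. Paqr3, another Golgi protein, dampens Ras signalling and anchors the SCAP and SREBP complex that controls sterol synthesis. Paqr4 is a Golgi protein tied to sphingolipid metabolism in mammalian cells. Paqr5, Paqr6, Paqr7, Paqr8 and Paqr9 are membrane progestin receptors.

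The 250 bases before the start of Mmd2 and of its closest relative Mmd are shown because these sister genes read differently on the arrays. Mmd2 was far lower in PFOS rats, and Mmd was near background in both groups. A fall of Mmd as large as that of Mmd2 could therefore not have been seen. Both windows come from RefSeq on the GRCr8 assembly and are read 5′ to 3′ on the plus strand, which is the strand of both genes. Capitals mark the CCAAT box (letters CCAAT) and the GC box (letters GGGCGG), searched on both strands, so that ATTGG and CCGCCC are the same motifs read on the minus strand.

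Mmd2, chr12:17076001-17076250: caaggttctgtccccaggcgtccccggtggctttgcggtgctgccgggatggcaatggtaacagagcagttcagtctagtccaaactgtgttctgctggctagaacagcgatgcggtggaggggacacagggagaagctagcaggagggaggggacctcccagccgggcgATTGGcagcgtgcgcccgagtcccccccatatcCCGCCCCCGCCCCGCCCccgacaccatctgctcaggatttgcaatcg
Mmd, chr10:75570203-75570452: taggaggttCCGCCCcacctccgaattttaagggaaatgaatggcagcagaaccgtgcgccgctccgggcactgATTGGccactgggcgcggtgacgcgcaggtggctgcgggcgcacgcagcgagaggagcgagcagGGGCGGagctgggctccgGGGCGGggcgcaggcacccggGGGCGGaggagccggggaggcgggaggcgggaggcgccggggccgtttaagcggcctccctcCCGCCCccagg

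The Mmd2 window held 1 CCAAT box, which began 80 bases before the start, and 3 GC boxes, which began 47, 41 and 36 bases before it. The last of these GC boxes shares 1 base with the one before it. The Mmd window held 1 CCAAT box at 176 bases and 5 GC boxes at 241, 112, 94, 73 and 11 bases. Of 33469 rat promoters of the same length, 34% held a CCAAT box and 30.5% a GC box. Neither window held the letters AGGTCA, a short site that many nuclear receptors bind, which 14.1% of promoters held, or the letters TATAAA, the TATA box, which 12.9% held. G and C made up 64.4% of the bases of the Mmd2 window and 74% of the Mmd window, against a median of 51.2% over all promoters. The deposited arrays measured no binding at these sequences.

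Across the arrays, the median Cy5 brightness over all spots was 106 to 139.5 scanner units in PFOS rats and 111 to 139 in control rats. The local background had medians of 71 to 75 units in PFOS rats and 73 to 75 in control rats. Cy5 was well above background, as the scanner software judges it, for 50.4% to 58.8% of probes in PFOS rats and 52.6% to 59.1% in control rats. All arrays lay on 1 slide with 1 scan date, and the 4 arrays of the first slide row (PFOS 1 and 2, control 1 and 2) were brighter than the 4 of the second. All 10 hepatocyte markers looked up (Alb, Apoa1, Apob, Ttr, Tf, Fgb, Cyp2e1, Cps1, Tat and Hnf4a) were measured in the liver samples. Their mean log2 ratio was 6.69 to 6.89 in PFOS rats and 6.61 to 6.87 in control rats. In the ratio 0 of 10 passed in limma, and 3 had an unadjusted p under 0.05 (19.9% over all features). Their log2 changes, PFOS minus control, ran from -0.45 to 0.84, with 5 of 10 below 0 (52.3% over all features). In Cy5 alone 1 passed (4.73% over all features), Apoa1 (-1.77, limma adjusted p = 0.000191). It also differed in Cy3 (-1.38, limma adjusted p = 0.0127), and the cause was not tested.

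Mmd2 messenger RNA was bright in control liver and near background in PFOS liver. The log2 ratio was 0.17, -0.25, -0.13 and -0.05 in PFOS rats, against 4.10, 3.66, 4.00 and 3.56 in control rats. Every PFOS array lay far below every control array, and the control values lay close together. The PFOS values did too, but at background level, so their spread does not measure agreement between rats. With the scanner software's processed signals the PFOS arrays stood at 0.11, -1.69, -1.53 and -1.20. The mean was -0.06 ± 0.17 in PFOS rats and 3.83 ± 0.26 in control rats (SD, n = 4 each), a log2 change of -3.89 (PFOS minus control, as for every change given here).

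The raw brightness shows the same contrast before any normalization. Each array carries 2 spots of the Mmd2 probe. In PFOS rats the spots had a median Cy5 brightness of 70 to 92 units over a local background of 68 to 75, and in control rats 339 to 668 units over a background of 69 to 74.5. After subtraction of the local background and averaging of both spots, 18.5, -0.5, 4 and 3.5 units were left in PFOS rats, against 564, 403.75, 444.75 and 279 units in control rats. PFOS 1 kept the most signal of the PFOS arrays, and control 4 had the least of the control arrays, yet they were far apart. None of the 8 spots was well above background in PFOS rats, and all 8 were in control rats. The Cy3 brightness of the same spots, from the shared reference RNA, was 55.5 to 68 units in PFOS rats and 63 to 80 units in control rats.

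**Figure D1:**
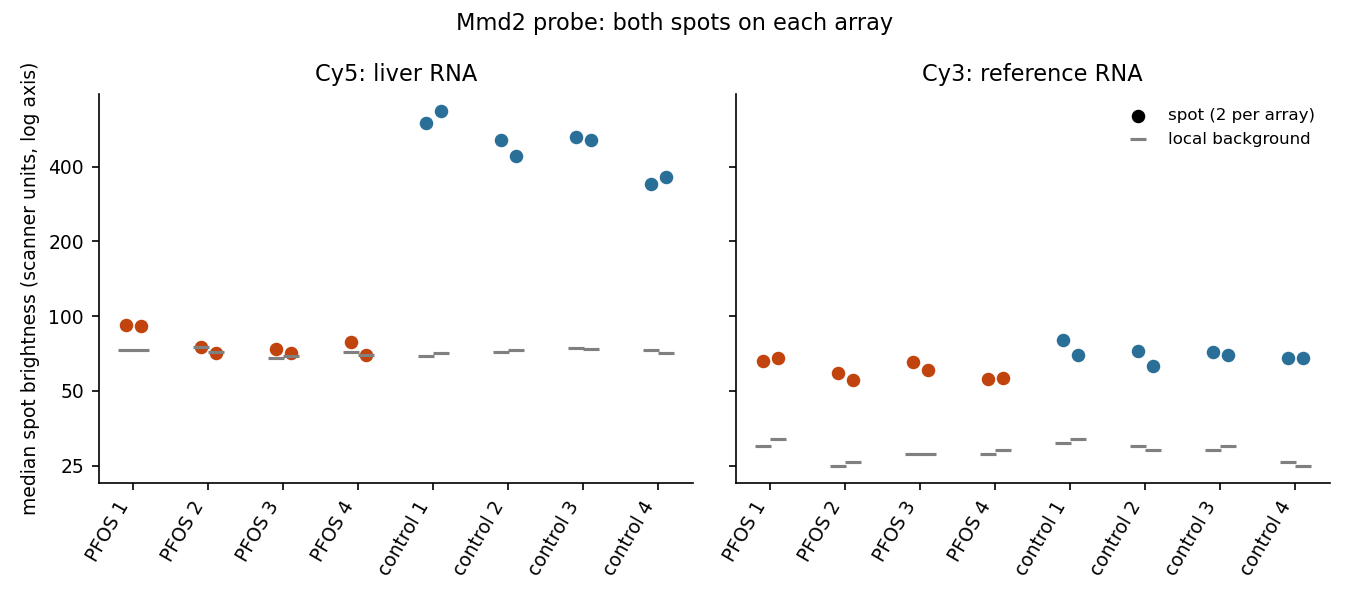
Median brightness in scanner units (log axis) of both Mmd2 spots on each array, in Cy5 (liver RNA, left) and Cy3 (reference RNA, right), with the local background of each spot as a grey dash. In Cy5 the PFOS spots lie at 70 to 92 units, at or just over background, and the control spots at 339 to 668 units, while Cy3 lies at 55.5 to 68 units in PFOS rats and 63 to 80 in control rats.

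No PFOS array measured Mmd2 above background, so its PFOS value is a signal at background level. The fold of Mmd2 also differed between normalizations, and the cause of that was not tested. In the Cy5 channel after loess and normalization between arrays (Aquantile), the mean was 6.34 in PFOS rats and 9.66 in control rats on the log2 scale. Mmd2 thus measured 9.96-fold lower, on that scale only. The dimmest signal counted as above background did not raise the PFOS mean, so it set no bound apart from this measured fold. With the Cy5 channel alone and quantile normalization the values were 6.36, 6.05, 6.17 and 6.18 in PFOS rats and 9.02, 8.55, 8.99 and 8.81 in control rats, a log2 change of -2.65, or 6.30-fold lower. The Cy3 channel gave a log2 change of -0.11 (SE 0.04). Its values were 6.493 to 6.638 in PFOS rats and 6.6445 to 6.738 in control rats, so the groups nearly touched but did not overlap. The log2 change of the ratio varied with the processing, from -2.64 with median centring in place of loess to -6.77 with the scanner software's processed signals. In the authors' deposited table Mmd2 stood at 0.07, -0.43, -0.25 and -0.15 in PFOS rats and at 4.14, 3.59, 3.98 and 3.37 in control rats.

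Such a switch from measured to not measured was uncommon on these arrays. Of 15201 tested genes and features, 15 (0.0987%) were measured above background on each of the 4 control arrays but on none of the PFOS arrays, and 4 of them had a symbol. The reverse pattern was seen for 8 (0.0526%), of which 3 had a symbol. Mmd2 had the lowest log2 change of all 15201, but it was chosen for this fall, so its place is only a description. Its probe passed the filter on dim probes through the 4 control arrays alone. The next lowest, a transcript without a symbol, stood at -3.13. The Ensembl-named transcript in that place fell below Mmd2 when median centring replaced loess or Cy5 was used alone, and Mmd2 was then second.

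Mmd, the sister gene of Mmd2, showed no such contrast. On the single arrays Mmd had log2 ratios of -2.54, -2.52, -2.13 and -2.15 in PFOS rats, against -2.39, -2.59, -2.29 and -1.88 in control rats. The groups overlapped, with control 4 the highest and control 2 the lowest of all arrays. The mean was -2.34 ± 0.23 in PFOS rats and -2.29 ± 0.30 in control rats (SD, n = 4 each), a log2 change of -0.05 with a 95% interval of -0.42 to 0.32 (limma adjusted p = 0.898). Mmd was dim in liver itself: its probe was well above background on 2 PFOS arrays and 4 control arrays, and 18.1 ± 7.91 units were left over background in PFOS rats and 24.7 ± 3.88 in control rats. Of its 8 spots in each group, 2 were well above background in PFOS rats and 4 in control rats. A fall as large as that of Mmd2 could not have been seen from this level. With the scanner software's processed signals the change was -0.76, which did not pass the test either.

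**Figure D2:**
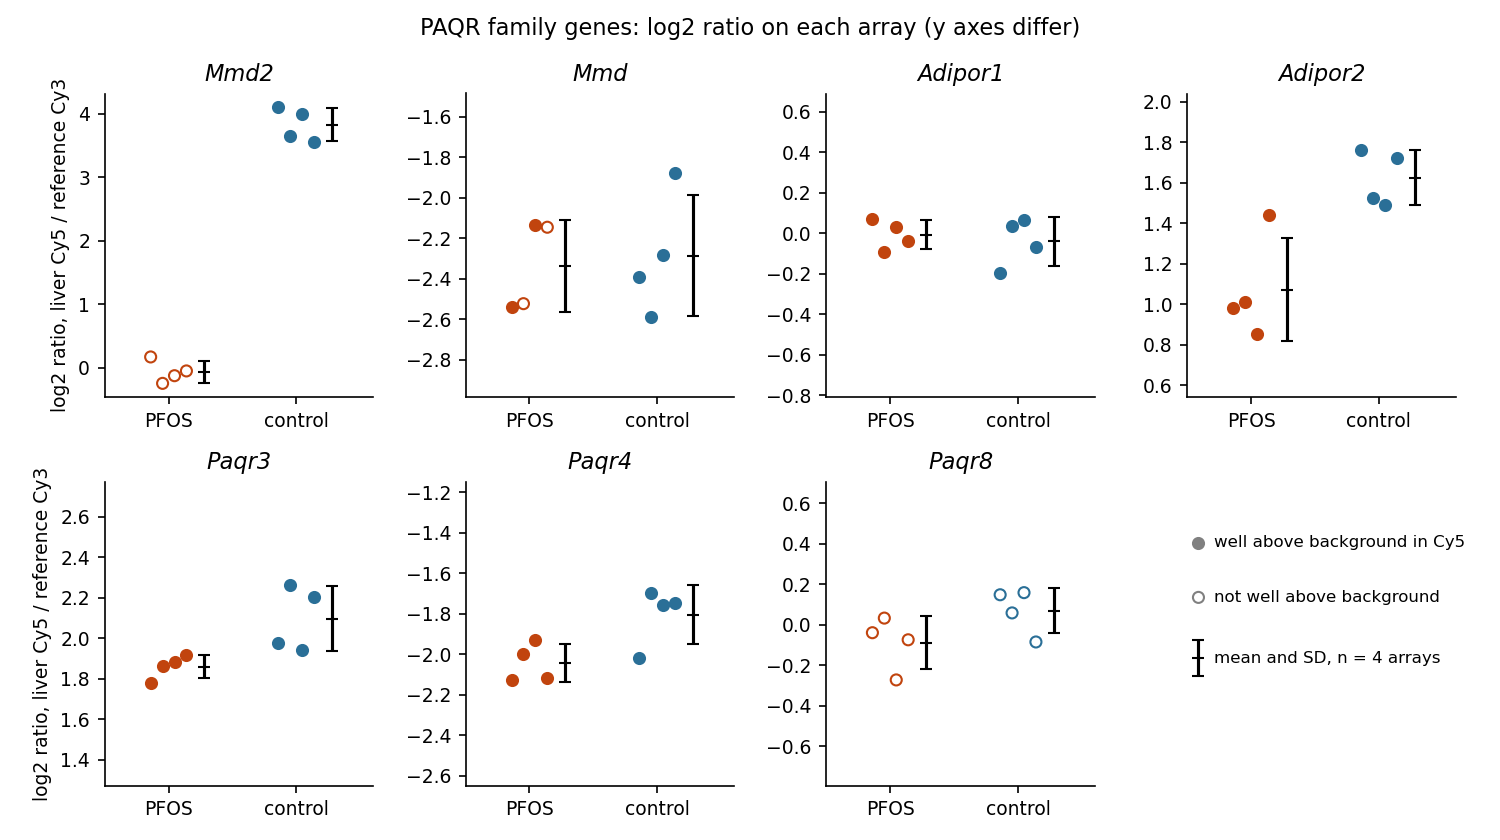
Log2 ratio of liver over reference RNA on each array for the 7 family genes with a probe, PFOS rats in orange on the left and control rats in blue on the right of each panel, with the mean and SD of 4 arrays. Mmd2 is separated by more than 3 log2 units, Adipor2 and Paqr3 are separated by less than 1 unit, and the other 4 genes overlap; open circles mark arrays where the probe was not well above background.

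Among the other tested members, Adipor2, Paqr3 and Paqr4 were lower on average in PFOS rats, and none passed the test. Of the 5 tested besides Mmd2, 0 had a limma p under 0.05 after Benjamini-Hochberg adjustment over all 15201 features, against 3.96% of all features. With unadjusted p the count was 3 of 5, against 19.9% of all features. With the Cy5 channel alone, 1 of 5 passed after adjustment (Adipor2), against 4.73% of all features, and with Cy3 alone 0 of 5 passed, against 0.0789%. In a fit over all 30367 probes, dim ones included, 0 of 6 members besides Mmd2 passed, against 1.77% of probes. Their log2 changes were below 0 in 4 of 5, against 52.3% of features, and their groups did not overlap in 2 of 5, against 12.8%. The median log2 change of these 5 genes was -0.24, against -0.01 over all features.

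Adipor2, the adiponectin receptor tied to PPARalpha in liver, had the next largest difference of the family. The log2 ratio of Adipor2 was 0.98, 1.01, 0.86 and 1.44 in PFOS rats, against 1.76, 1.53, 1.49 and 1.72 in control rats. All PFOS arrays lay below all control arrays, with PFOS 4 close to control 3. The mean was 1.07 ± 0.25 in PFOS rats and 1.63 ± 0.14 in control rats (SD, n = 4 each), a log2 change of -0.55 (SE 0.13, 1.47-fold lower; 95% interval -0.85 to -0.26). The limma adjusted p was 0.0532, just over the threshold of 0.05.

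The Cy5 channel of Adipor2 alone stood at 12.31, 12.37, 12.30 and 12.85 in PFOS rats, against 13.18, 12.95, 12.94 and 13.14 in control rats, on the log2 scale. Again no values overlapped, and the log2 change of -0.59 passed the limma test (adjusted p = 0.0342). Over the 14 alternative settings the limma adjusted p of Adipor2 ranged from 0.0342 to 0.234, and 2 of 14 passed. With each array left out in turn it ranged from 0.0127 to 0.131, and 1 of 8 passed, the one without PFOS 4 (log2 change -0.68). In Cy3 the log2 change of Adipor2 was -0.01. Within each slide row the ratio of Adipor2 was lower in PFOS rats, by a log2 change of -0.65 in the first row (limma adjusted p = 0.182) and -0.46 in the second (0.49), with 2 arrays a group.

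Adipor1, the adiponectin receptor tied to AMPK, was nearly level. Adipor1 had log2 ratios of 0.07, -0.09, 0.03 and -0.04 in PFOS rats, against -0.20, 0.04, 0.07 and -0.07 in control rats. The groups overlapped over nearly their whole range, and control 1 was the lowest array. The mean was -0.01 ± 0.07 in PFOS rats and -0.04 ± 0.12 in control rats (SD, n = 4 each), a log2 change of 0.03 with a 95% interval of -0.16 to 0.22 (limma adjusted p = 0.861).

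The receptors were also compared with each other on the same array. Adipor2 minus Adipor1, in log2 ratio, was 1.08 ± 0.29 in PFOS rats and 1.67 ± 0.25 in control rats (SD, n = 4 each), a difference of -0.59. The range was 0.82 to 1.47 in PFOS rats and 1.42 to 1.96 in control rats, so the groups overlapped slightly. An exact two-sided permutation test over the 70 splits of the arrays gave p = 0.0571, where 0.0286 is the smallest p it allows. The unequal change of these genes did therefore not pass 0.05.

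Paqr3, the Golgi anchor of SCAP, was slightly lower in PFOS rats. Its log2 ratio was 1.78, 1.86, 1.88 and 1.92 in PFOS rats, against 1.98, 2.26, 1.94 and 2.20 in control rats. The groups did not overlap, but PFOS 4 and control 3 nearly touched. The mean was 1.86 ± 0.06 in PFOS rats and 2.10 ± 0.16 in control rats (SD, n = 4 each), and the difference of -0.24 on the log2 scale (SE 0.09) did not pass in limma (adjusted p = 0.202).

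Paqr4, the Golgi member tied to sphingolipids, differed by a like amount. Its log2 ratio was -2.13, -2.00, -1.93 and -2.12 in PFOS rats, against -2.02, -1.70, -1.76 and -1.75 in control rats. The groups overlapped through control 1, which lay among the PFOS arrays. The mean was -2.04 ± 0.10 in PFOS rats and -1.80 ± 0.14 in control rats (SD, n = 4 each), and the difference of -0.24 on the log2 scale (SE 0.09) did not pass either (limma adjusted p = 0.202).

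Of the progestin receptor branch, Paqr5, Paqr6 and Paqr8 had a probe, and none of them was measured above background in liver. Paqr7 and Paqr9 had no matching probe, so their level is not known here. Paqr8 did not rise well above background on a single array, with 5.69 ± 5.32 units left over background in PFOS rats and 10.7 ± 4.60 in control rats (SD, n = 4 each). Its log2 ratio was -0.04, 0.03, -0.27 and -0.07 in PFOS rats and 0.15, 0.06, 0.16 and -0.08 in control rats, and the groups overlapped. Paqr5 and Paqr6, looked up as the remaining family genes, were likewise too dim in Cy5 on every array. The same 3 probes were well above background in Cy3 on all 8 arrays, so the reference RNA gave each of them a signal. No fold is given for genes below background in both groups.

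**Figure D3:**
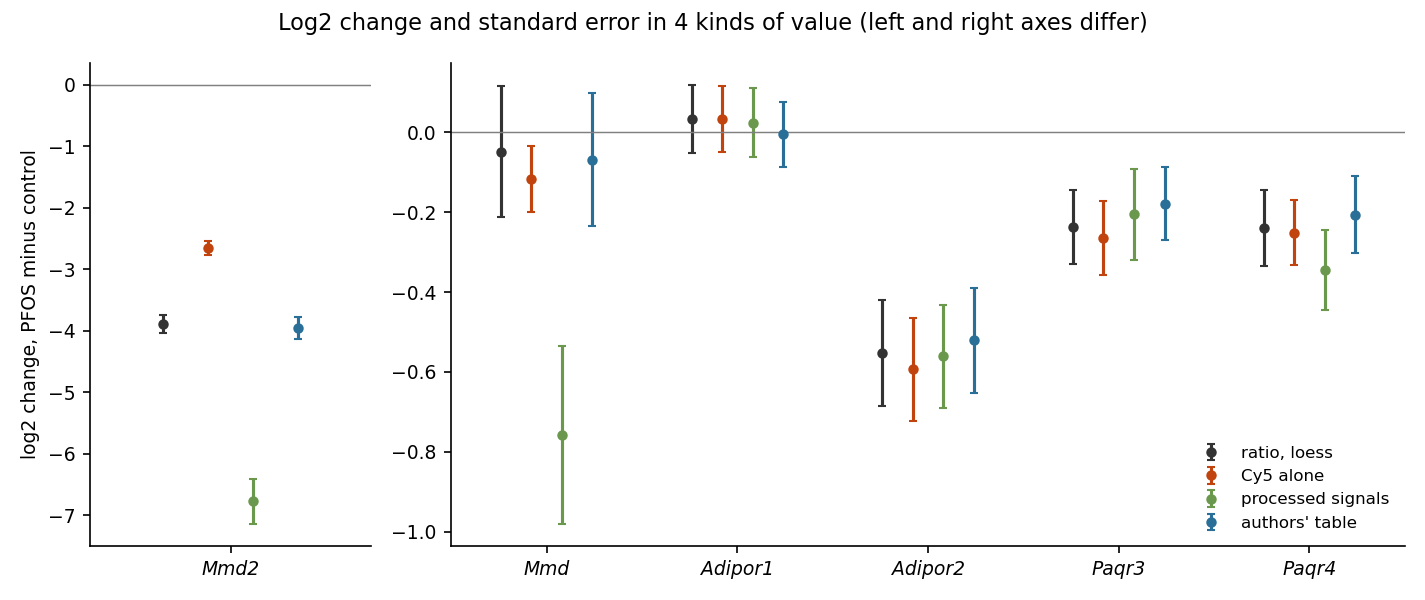
Log2 change, PFOS minus control, with its standard error, for the 6 tested family genes from 4 kinds of value: the loess ratio, Cy5 alone, the scanner software's processed signals and the authors' deposited table (the axis of Mmd2 at left differs from that of the other genes). Adipor2 lies between -0.59 and -0.52 and Adipor1 near 0 in all of them, whereas Mmd2 spans -6.77 to -2.65 and Mmd reaches -0.76 with processed signals.

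Genes that work with the family were followed through 5 lists: adiponectin signalling, the SCAP and SREBP system, Ras signalling, ceramide and sphingosine metabolism, and other progesterone-binding proteins. Calls are from the same limma fit, with adjusted p under 0.05, which called 1.82% of all features higher and 2.14% lower in PFOS rats. The share of all features with an unadjusted p under 0.05 was 19.9%, and 52.3% had a log2 change below 0. Liver was measured whole, so fewer cells of a type and less RNA per cell cannot be told apart for any gene here.

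In adiponectin signalling, 13 of 19 genes were tested, 0 passed in limma and 7 had an unadjusted p under 0.05 (19.9% over all features). Their median log2 change was -0.25, and 9 of 13 were below 0 (52.3% over all features). The smallest p belonged to Acaca, the acetyl-CoA carboxylase that starts fatty acid synthesis, with a log2 ratio of 0.74 ± 0.24 in PFOS rats and 1.60 ± 0.50 in control rats (SD, n = 4 each). The groups of Acaca did not overlap, and its log2 change of -0.86 missed the limma threshold (adjusted p = 0.0804), but passed it when control 3 was left out (-1.08, adjusted p = 0.0171), and in Cy5 alone the log2 change was -0.57. Mlycd, which degrades malonyl-CoA, the product of that carboxylase, stood at 3.20 ± 0.09 in PFOS rats and 2.89 ± 0.11 in control rats (SD, n = 4 each). Its log2 change was 0.31 (limma adjusted p = 0.0877). Ppara, the fatty acid sensor named with Adipor2, varied widely among rats of both groups. Its log2 ratio ranged over 1.06 to 2.99 in PFOS rats and 1.50 to 3.09 in control rats, a log2 change of -0.50 with an SE of 0.44 (limma adjusted p = 0.563). Single arrays moved it widely, to -0.84 without PFOS 2, -0.83 without control 4, -0.20 without PFOS 3 and -0.29 without control 2, and Cy5 alone gave -0.25. The adaptor Appl1 had no matching probe. The 5 AMPK subunit genes tested ranged in log2 change from -0.34 for Prkab1 to 0.25 for Prkaa1, and none passed. Adiponectin itself (Adipoq), a fat cell product, had a probe but was not among the tested features.

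In the SCAP and SREBP system, 7 of 9 genes were tested, 0 passed in limma and 1 had an unadjusted p under 0.05. That gene was Insig2, which retains SCAP in the endoplasmic reticulum, with a log2 ratio of 4.48 ± 0.13 in PFOS rats and 4.99 ± 0.29 in control rats (SD, n = 4 each). The groups of Insig2 did not overlap, and the log2 change was -0.51 (limma adjusted p = 0.0901). Scap, which Paqr3 anchors, had a log2 change of -0.37 with an SE of 0.19 (limma adjusted p = 0.325), its groups overlapped, and without control 1 the log2 change was -0.18. The median log2 change of the list was -0.09.

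In Ras signalling, 16 of 23 genes were tested, 1 was called lower, 0 higher, and the median log2 change was -0.004. An unadjusted p under 0.05 was found for 2 of the 16 (19.9% over all features). The called gene was Dusp6, a phosphatase that switches off kinases below Ras and that Ras signalling itself induces. Dusp6 had log2 ratios of -1.56, -2.18, -1.94 and -1.68 in PFOS rats, against -1.29, -0.44, -0.95 and -0.87 in control rats. The groups did not overlap, with PFOS 1 and control 1 the nearest. The change of -0.95 on the log2 scale (SE 0.19) passed in limma (adjusted p = 0.027), and it no longer passed without PFOS 2, PFOS 3, control 2, control 3 or control 4, while its value stayed between -1.09 and -0.80. Rasa1, a brake that turns Ras off, stood at -0.27 ± 0.11 in PFOS rats and 0.07 ± 0.09 in control rats (SD, n = 4 each), a log2 change of -0.33 (limma adjusted p = 0.0638).

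In ceramide and sphingosine metabolism, 20 of 29 genes were tested, 1 was called higher, 0 lower, and the median log2 change was -0.02. An unadjusted p under 0.05 was found for 1 of the 20 (19.9% over all features). The called gene was Sgpl1, the lyase that breaks down sphingosine phosphate and so ends the pathway. Its log2 ratio was 2.67, 2.76, 2.87 and 2.50 in PFOS rats, against 2.11, 2.05, 2.21 and 2.15 in control rats. All PFOS arrays lay above all control arrays. The change of 0.57 on the log2 scale (SE 0.09) passed in limma (adjusted p = 0.012), which held without any single array and was lost with median centring or with scaling between arrays. Sphk2, a kinase that makes sphingosine phosphate, had a log2 change of -0.25 (limma adjusted p = 0.272), or -0.14 without PFOS 3. Ugcg, which joins glucose to ceramide, had a log2 change of 0.41 (limma adjusted p = 0.278), or 0.25 without control 1. Of the progesterone-binding proteins 3 of 6 genes were tested, 0 passed in limma and 1 had an unadjusted p under 0.05. That gene was Pgrmc2, with a log2 ratio of 2.74 ± 0.06 in PFOS rats and 2.46 ± 0.07 in control rats (SD, n = 4 each), a log2 change of 0.28 (limma adjusted p = 0.0727).

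**Figure D4:**
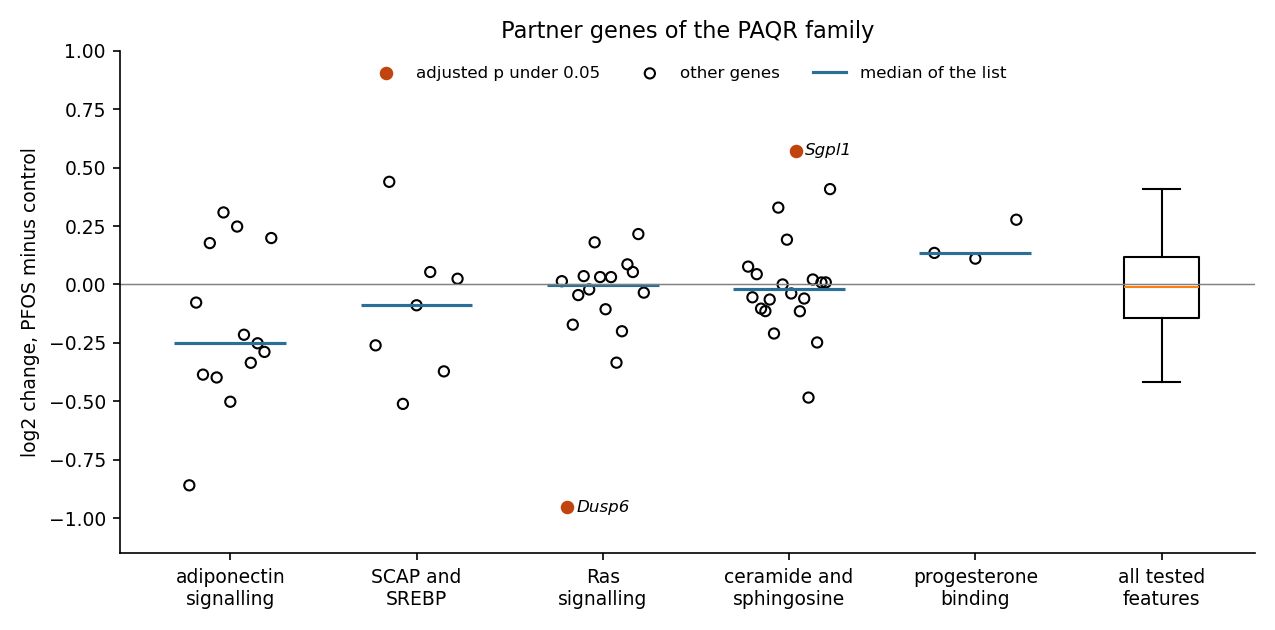
Log2 change, PFOS minus control, of the tested genes of 5 lists of partner genes, with the median of each list as a blue bar and, at right, all 15201 tested features as a box from the lower to the upper quartile (whiskers from the 5th to the 95th percentile, points beyond not drawn). Sgpl1 (0.57) and Dusp6 (-0.95) are the filled points that passed the test, and the adiponectin list has its median at -0.25.

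Markers of other liver cells were read beside these genes, because Mmd is named for the differentiation of monocytes into macrophages. Of 10 markers of Kupffer cells and macrophages 9 were tested, and Itgam had a probe but was not among the tested features. None of the 9 was called by limma, 1 had an unadjusted p under 0.05, and all 9 log2 changes were below 0 (52.3% over all features), from -0.78 to -0.01 with a median of -0.24. Their mean log2 ratio ranged over 2.44 to 3.39 in PFOS rats and 2.73 to 3.53 in control rats, and the log2 of their summed Cy5 signal over 14.7 to 15.4 in PFOS rats and 14.9 to 15.6 in control rats. Cd5l (-0.78), Adgre1 (-0.78), Vsig4 (-0.39) and Csf1r (-0.33) had the largest log2 changes of the list, and Clec4f (-0.01), specific to Kupffer cells, the smallest. The 3 tested markers of sinusoidal endothelium, 3 of lymphocytes, 2 of neutrophils and 3 of red blood cells all had log2 changes below 0, and 4 of 6 stellate cell markers did. The median log2 change was -0.48 for endothelium, where 2 of 3 had an unadjusted p under 0.05, -0.15 for lymphocytes, -0.36 for neutrophils, -0.47 for red blood cells and -0.13 for stellate cells. No marker of these lists passed the limma test, nor did the 4 cholangiocyte markers or the 1 pancreas marker tested, all above 0. Fat cell markers were not among the tested features. The part of these cells in the lower values of Mmd2, Adipor2, Paqr3 and Paqr4 was not tested.

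The genes whose ratios most resembled those of Mmd2 over the 8 arrays were listed as a description. The measure was Pearson's r over 8 arrays that fall into 2 groups, so a high r mostly means a like difference between the groups. Of 9618 other genes, 183 had an r over 0.9 and 171 an r under -0.9. The most alike was Gc, the vitamin D binding protein of plasma (r = 0.990), which had a log2 change of -0.40 in the ratio. Gc lost its call in Cy5 alone (-0.11, limma adjusted p = 0.414), with scaling between arrays (-0.16, 0.853), with median centring (0.364) and with slide column as a block (0.0784). Nupr1, a stress-induced nuclear protein, followed (r = 0.989, log2 change -0.71). Dio1, the deiodinase that converts thyroid hormone in liver, was also among the 10 most alike (r = 0.984, log2 change -1.28). Its log2 ratio was 4.68, 4.83, 4.72 and 4.77 in PFOS rats and 6.06, 6.07, 5.91 and 6.09 in control rats.

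The rest of the 10 were H4c14, Trmt44, Tmem123, B4gat1, Mdh1, Frmd8 and Hist1h4b, with r of 0.985 to 0.975. All 10 genes except Frmd8 were called lower in PFOS rats by limma, and Mdh1, the cytosolic malate dehydrogenase, lost its call without any 1 of the 8 arrays. With median centring Trmt44, Tmem123, B4gat1 and Mdh1 were not called either. H4c14 and Hist1h4b code for the same histone protein from near-identical copies, so their probes may read each other's transcripts, and H4c14 stood at -0.04 when all its probes were averaged. The 5 most opposite genes were Acot1 (r = -0.995), Impa2, Aig1, Cyp2b2 and Cidea (r = -0.987). Acot1, an acyl-CoA thioesterase of the cytosol, had a log2 change of 6.63, and Cyp2b2, a cytochrome that drugs induce in liver, one of 3.62. In Cy3, the reference RNA, both also differed, by 1.58 for Acot1 (limma adjusted p = 0.0015) and 1.90 for Cyp2b2 (0.00511). The cause was not tested. Cy5 alone gave 6.74 for Acot1 and 5.75 for Cyp2b2, and Cyp2b2 stood at 2.18 when its probes were averaged. Of the family, Adipor2 had an r of 0.84 with Mmd2, Paqr4 of 0.70, Paqr3 of 0.69, Mmd of 0.08 and Adipor1 of -0.19.

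**Figure D5:**
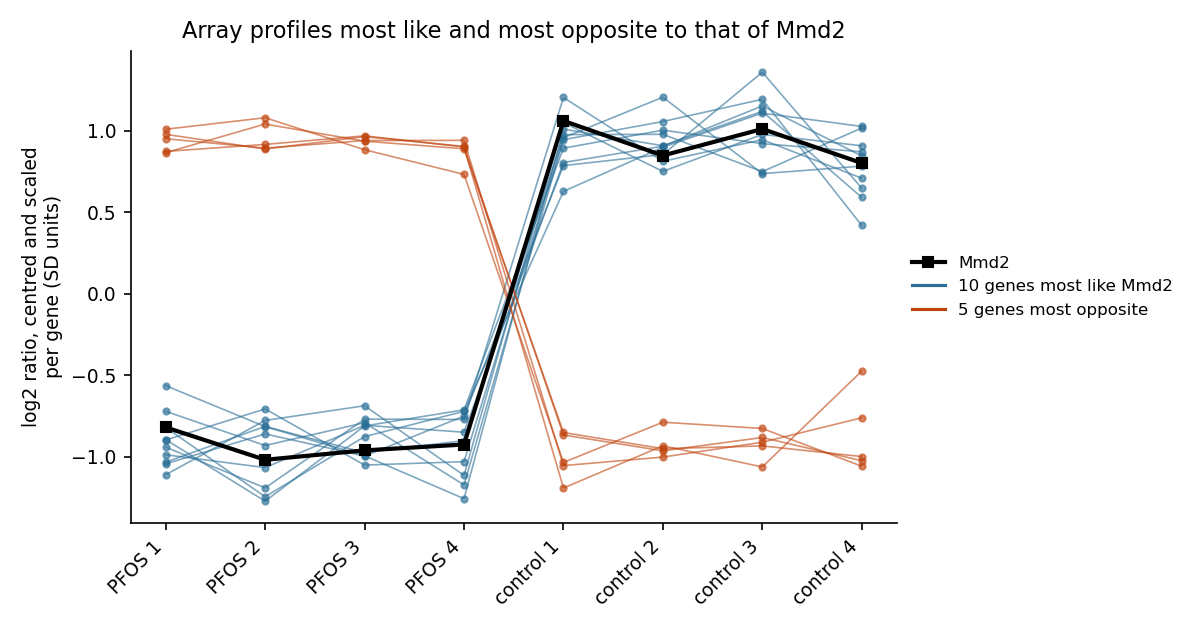
Log2 ratio on each array for Mmd2 (black), the 10 genes most like it (blue) and the 5 most opposite (orange), each centred and scaled to its own SD over the 8 arrays. The blue genes are low on the 4 PFOS arrays and high on the 4 control arrays as Mmd2 is, and within a group the order of arrays differs from gene to gene.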

How the data were processed

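Spot intensity values were deposited by the authors from Agilent Feature Extraction (version 10.7.3.1, per the submitters' processing notes). The values are median signals and median local backgrounds on a linear scale, and processed signals already corrected by the software for background and dye. A further table deposited by the authors holds log2 ratios, whose method is not given in the sources used here. Each column of that table followed the loess log2 ratio of liver over reference signal, background not subtracted (Pearson r 0.995 to 0.997, slope 0.989 to 0.993), which gave its scale and direction, and how it was centred is unknown. Its medians were -0.052, -0.061, -0.061 and -0.053 on PFOS arrays 1 to 4 and -0.048, -0.054, -0.052 and -0.057 on control arrays 1 to 4. The scan resolution was 3 micrometres per the file headers, which differs from the design text.

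Groups came from the labels. The median signals were used. Background was corrected with normexp (offset 50), followed by loess within each array, where control spots had weight 0. Outlier spots (733 to 991 per array) were left out, none were saturated, and spots of a probe were averaged. Symbols came from RefSeq accessions without versions (17933 of 19131 matched). A probe was kept if well above background in liver Cy5 on 4 or more of the 8 arrays. It also needed a value on all 8 arrays once outlier spots were left out. The brightest such probe stood for each gene, which left 15201 features. The groups were compared with limma 3.58.1 in R 4.3.3 (lmFit and eBayes, two-sided, Benjamini-Hochberg adjustment over all features). The package data.table, version 1.17.8, read the files. The limma fit was tested on simulated log2 ratios, and the steps before it were not.

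For the bound on the fold of Mmd2, the mean Cy5 value of control arrays was set against the mean, per PFOS array, of the probe's signal, or of the dimmest signal counted as above background where that was higher. The dimmest signal did not change the PFOS mean, so the bound equalled the measured fold. No dyes were swapped, so an effect of dye was not tested. The members and lists were chosen with earlier results of these data known. Named genes were all members with a probe, the called genes of each list (up to 4) and the next 2 by p, Appl1, Ppara and Scap, and the 10 genes most and 5 least correlated with Mmd2. Prkab1, Prkaa1, Adipoq, Apoa1 and the named Kupffer cell markers were picked out after their values were seen. A result withheld for evaluation is not reported here. The alternatives were other background corrections, processed signals, median centring, scaling between arrays, Cy5 alone, the authors' table, other filters on dim probes, averaging a gene's probes, trend and robust options of eBayes, slide row or column as a block, each slide row alone and each array left out.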

Additional observations from a re-analysis of the deposited data

Results flagged for a closer look

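Control 3 stood apart from the other control arrays for a pair of genes named with the family. For Mlycd its log2 ratio was 3.06, whereas the other control arrays lay at 2.82 to 2.85. For Dio1 it was 5.91, whereas the others lay at 6.06 to 6.09. In both cases the gap to the nearest array filled more of the group's range than Dixon's limit allows, which chance passes in about 1 in 20 groups. With 68 groups checked, about 3.4 such flags arise by chance, and 2 were found. Neither flag touched a family member.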

How the results depend on the processing

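No paired analysis was possible because the replicate numbers follow accession order and pair no rats. Mmd2 was lower in PFOS rats under every alternative, with a log2 change of -4.12 without background subtraction, -5.32 with an offset of 0, -6.77 with processed signals, -2.64 with median centring, -2.65 in Cy5 alone and -3.98 to -3.80 with any 1 array left out. It has no value where a probe had to be well above background on all 8 arrays, and neither has Mmd. The count of other family members called was 1, always Adipor2, in Cy5 alone and with that filter, and 0 to 1 with 1 array left out (1 without PFOS 4). Adipor2 itself lay between -0.68 and -0.46 throughout. Values near 0 changed sign: Mmd was -0.15 to 0.086 with 1 array left out (0.019 without PFOS 1, 0.013 without PFOS 2, 0.086 without control 4), and Adipor1 was -0.019 to 0.069 (-0.019 without control 1), -0.0059 in the authors' table and -0.0027 in the second slide row alone. Over all features 602 were called, 239 with median centring, 330 with scaling between arrays, 268 with slide column as a block, and 350 to 519 with 1 array left out. Each slide row by itself, chosen after seeing the data, called 92 and 29 with 2 arrays a group. The cause of these differences was not tested. The 4 arrays a group limit the precision, and signal near background limits Mmd2 in PFOS rats, Mmd and Paqr8.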

Other observations

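The genes that flank Mmd2 in the RefSeq order of the GRCr8 assembly, looked up after the values of Mmd2 were seen, were read on the same arrays. Wipi2, an autophagy protein next to Mmd2, had a log2 change of 0.17 (limma adjusted p = 0.278). Slc29a4, a monoamine transporter, had -0.34 (limma adjusted p = 0.302), and Foxk1, a forkhead transcription factor, had 0.14 (limma adjusted p = 0.541). The groups overlapped for all 3 genes. Tnrc18, Radil and Papolb had a probe but were not among the tested features.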
